A study of Mus musculus with 12 samples.

Results

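The genes described are 10 markers of macrophages and microglia-like cells: Csf1r, Cd68, Adgre1, Aif1, C1qa, C1qb, C1qc, Mrc1, Lyz2 and Cx3cr1. They were taken as listed, by the gene symbol of the array's annotation, and not by any measured value. All 10 were measured, each by 1 probe, among 19937 genes. The samples were 12 pools of total RNA from whole olfactory epithelium, the sheet of the nasal cavity that holds the odour-sensing neurons, each pooled in equal amounts from 4 male C57BL/6 mice, 48 mice in all. The animals had lived under 12 h of light and 12 h of darkness for at least 14 days, were moved to constant darkness, and were killed every 4 h from circadian time (CT) 12 to CT56, with 1 pool for each time. The 6 pools of the subjective night, the active phase of a mouse, were CT12, CT16, CT20, CT36, CT40 and CT44. The 6 pools of the subjective day were CT24, CT28, CT32, CT48, CT52 and CT56. The second cycle ran from CT36 to CT56 and the first from CT12 to CT32, so each phase of the day was sampled once in each cycle. All values are log2 intensities as deposited. Since each time was 1 pool, every test below measures the spread between pools, and mice within a pool could not be compared.

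Macrophages engulf dying cells and debris and present antigen, and every tissue keeps its own resident population. In the olfactory epithelium, where sensory neurons are replaced throughout life, macrophages clear dead neurons and respond to injury. Their survival depends on the receptor Csf1r, and many of their genes carry sites for the transcription factor PU.1, the product of Spi1. Macrophages of several tissues are known to carry a working circadian clock.

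The tissue label matched its markers. Omp, the marker of mature olfactory neurons, averaged 12.9, Cnga2, a subunit of their transduction channel, 12.6, and Cyp2g1, an enzyme of the supporting cells, 13.7. The pools' median values lay between 7.81 and 7.92. The CT56 pool had the lowest mean correlation with the other pools, 0.975, and the lowest array weight in the rhythm fit, 0.33. The files used give no detection calls, so it is not known which probes lie above background.

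Promoter sequences were in the RefSeq table of the build GRCm38.p6 for 7 of the 10 markers. Of these, 4 held the letters AGGAAGT, a core of PU.1 sites, on either strand within 250 bases before the start of the gene: C1qb, C1qc, Mrc1 and Lyz2. Among all 32851 promoters of the table, 7.69% held it over the same length. These 4 are shown because they include C1qb and Mrc1, the pair of markers that moved most alike across the pools, and Lyz2, the marker that varied most. Each is written 5′ to 3′ on the strand of its gene, and the capitals mark ACTTCCT, which is AGGAAGT read on the opposite strand. The regions are chr4:136886201-136886450 (minus strand), chr2:14229164-14229413 (plus strand), chr4:136892915-136893164 (minus strand) and chr10:117282273-117282522 (minus strand).
C1qb: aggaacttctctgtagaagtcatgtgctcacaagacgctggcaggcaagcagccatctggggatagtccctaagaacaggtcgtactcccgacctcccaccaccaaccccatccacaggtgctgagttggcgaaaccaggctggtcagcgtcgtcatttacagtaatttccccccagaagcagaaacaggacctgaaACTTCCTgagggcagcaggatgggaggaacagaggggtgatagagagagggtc
Mrc1: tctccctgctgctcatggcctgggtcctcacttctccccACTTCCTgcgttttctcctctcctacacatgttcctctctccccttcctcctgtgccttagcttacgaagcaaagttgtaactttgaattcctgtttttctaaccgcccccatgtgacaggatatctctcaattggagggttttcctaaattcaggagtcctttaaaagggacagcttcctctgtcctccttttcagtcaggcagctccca
C1qc: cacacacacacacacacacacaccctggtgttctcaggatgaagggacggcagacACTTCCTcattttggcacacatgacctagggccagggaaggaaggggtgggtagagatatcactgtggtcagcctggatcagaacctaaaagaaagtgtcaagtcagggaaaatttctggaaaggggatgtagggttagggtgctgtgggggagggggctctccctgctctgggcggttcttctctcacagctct
Lyz2: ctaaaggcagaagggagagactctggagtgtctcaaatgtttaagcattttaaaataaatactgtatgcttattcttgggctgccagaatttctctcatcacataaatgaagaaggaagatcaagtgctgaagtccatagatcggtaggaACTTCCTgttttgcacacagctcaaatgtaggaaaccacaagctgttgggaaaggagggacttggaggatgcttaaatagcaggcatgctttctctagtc
The match lies 53 bases before the start in C1qb, 211 in Mrc1, 195 in C1qc and 100 in Lyz2. The overlapping letters GAGGAAG, searched on both strands, were in C1qc and Mrc1 and in 10.6% of all promoters. The E-box CACGTG, to which the clock proteins CLOCK and BMAL1 bind, was in 0 of the 7 promoters and in 6.02% of all, and the D-box TTATGTAA was in 0 of the 7 and in 0.819% of all. The letters AGGTCA, a site of ROR and REV-ERB receptors, were in Aif1 and C1qc and in 14.0% of all. These are matches of letters in this window, chosen with the matches in view.

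Across the 2 days, 9 of the 10 macrophage markers had a spread near that of all genes, with SDs of 0.10 to 0.16 over the 12 pools against a median of 0.13 for all genes, and Lyz2 varied more, with an SD of 0.40. None of the 10 passed the test for a 24 h rhythm, for a difference between subjective night and subjective day, or for a difference between the second and the first cycle (limma, Benjamini-Hochberg over all genes, threshold 0.05). The smallest adjusted p-values in these limma fits were 0.996 for the rhythm, 0.497 for night against day and 0.441 between cycles. Among all genes, 0.0251% passed for the rhythm, which is 5 genes, and 0% passed either of the other 2 fits. At an unadjusted p under 0.05, 1 marker (Lyz2) was counted for the rhythm, against 3.54% of all genes, 1 (Aif1) for night against day, against 9.86%, and 0 between cycles, against 13.2%. The median amplitude, the distance from mean to peak of the fitted 24 h curve, was 0.07 for the markers and 0.06 for all genes on the log2 scale. The median difference of night minus day was 0.01 for the markers and -0.00 for all genes. Of the 10, 5 were higher at night, as were 48.5% of all genes. In whole tissue, fewer macrophages and less of a transcript in each macrophage cannot be told apart.

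**Figure D1:**
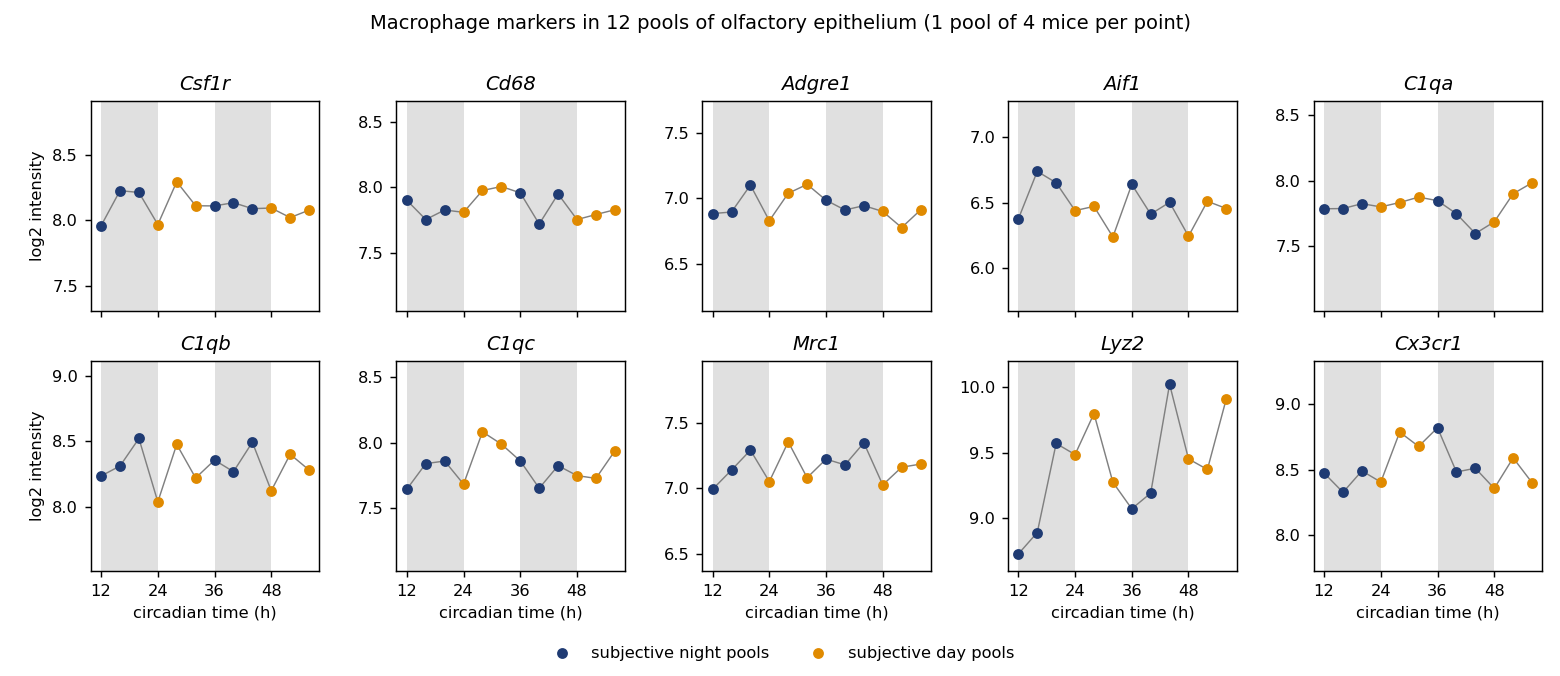
Deposited log2 intensity of each macrophage marker (vertical axes, each spanning the same 1.6 log2 units) against circadian time (h), 1 point per pool of 4 mice, with grey for the subjective night. Lyz2 ranges over 1.30 log2 units, and each of the other 9 over 0.50 or less.

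The receptor and surface markers of the lineage passed none of the tests. Csf1r, the receptor for the growth factors CSF1 and IL-34, had a lowest value of 7.96 (CT12), a median of 8.12 and a highest value of 8.23 (CT16) in the subjective night. In the subjective day it had 7.97 (CT24), 8.09 and 8.30 (CT28). The groups overlapped almost entirely, and night minus day was 0.03, with a 95% interval from -0.11 to 0.17. The 6 pools of the second cycle lay close together, with a mean of 8.09 ± 0.04, against 8.13 ± 0.14 in the first cycle (SD, n = 6 each). This narrowing was not tested.

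Adgre1, which encodes the F4/80 antigen used to stain mouse macrophages, had 6.88 (CT12), 6.93 and 7.10 (CT20) at night as lowest, median and highest, against 6.78 (CT52), 6.90 and 7.11 (CT32) by day. Its difference was 0.03, with an interval from -0.11 to 0.17. Mrc1, the mannose receptor of tissue-resident macrophages, had 6.99 (CT12), 7.20 and 7.35 (CT44) at night and 7.03 (CT48), 7.12 and 7.35 (CT28) by day. Night minus day was 0.05 for Mrc1, with an interval from -0.10 to 0.20. Both genes had overlapping groups, and both were below their own mean at CT12 and CT24. Cx3cr1, the fractalkine receptor, which is high in microglia and in many resident macrophages, had 8.33 (CT16), 8.49 and 8.82 (CT36) at night, against 8.36 (CT48), 8.50 and 8.79 (CT28) by day. Its 3 highest pools were consecutive times, with 8.79 at CT28, 8.68 at CT32 and 8.82 at CT36. Night minus day was -0.02 for Cx3cr1, with an interval from -0.21 to 0.17. With array weights, night minus day was 0.10 for Csf1r, 0.09 for Adgre1, 0.11 for Mrc1 and 0.02 for Cx3cr1, and none passed. The weights were estimated separately for each fit, and those of night against day are not given here. In the rhythm fit CT24 weighed most (2.74), and CT56 (0.33) and CT52 (0.47) least.

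The intracellular markers Cd68 and Aif1 did not pass either. Cd68, a lysosomal glycoprotein of phagocytes, had 7.72 (CT40), 7.86 and 7.96 (CT36) at night and 7.75 (CT48), 7.82 and 8.01 (CT32) by day. Its difference of -0.01, with an interval from -0.15 to 0.13, was the smallest in size of the 10. Aif1, which encodes the actin-binding protein IBA1, had 6.38 (CT12), 6.57 and 6.74 (CT16) at night, against 6.24 (CT32), 6.45 and 6.51 (CT52) by day. Night was higher by 0.16 ± 0.08 (SE, 6 pools each), with an interval from 0.00 to 0.32, and the groups overlapped (limma adjusted p = 0.497). Of all genes, 0.231% had night and day pools that did not overlap, and 0 of the 10 markers did. Aif1 was also set beside the dim end of the arrays. Its Pearson r with each pool's 25th percentile over all probes was 0.73 (permutation p = 0.00683, adjusted over 10 markers 0.0683), and Spearman's rho was 0.76 (permutation p = 0.00615). Without CT36 and CT48, the pools farthest from the median, r was 0.60. That percentile had a median of 6.64 at night and 6.61 by day, and its part in the difference was not tested. After quantile normalization, which sets the dim end equal, the difference was 0.12.

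The 3 chains of C1q, the recognition molecule that starts the classical complement pathway, lie next to each other on chromosome 4 in the order C1qb, C1qc, C1qa, with 0 protein-coding genes between them. The protein needs all 3 chains, yet their intensities did not follow each other closely across the pools. C1qa and C1qb had r = -0.02 over 12 pools (permutation p = 0.962), C1qa and C1qc 0.36, and C1qb and C1qc 0.44, and none of these passed the test over all 45 pairs of markers. Leaving out CT44 alone, the C1qa and C1qb correlation was 0.34. Without CT44 and CT56, the pools farthest from the median of C1qa, its r was 0.49 with C1qb and 0.43 with C1qc. Without CT20 and CT24, C1qb and C1qc had 0.35. Spearman's rho over 12 pools was 0.12 for C1qa and C1qb, 0.55 for C1qa and C1qc and 0.36 for C1qb and C1qc. C1qa had 7.60 (CT44), 7.79 and 7.85 (CT36) at night, against 7.69 (CT48), 7.86 and 7.98 (CT56) by day. It hardly moved in the first cycle and spread in the second, with SDs of 0.14 in the second cycle and 0.03 in the first (n = 6 each), a contrast opposite to that of Csf1r and also not tested. C1qc had 7.65 (CT12), 7.83 and 7.86 (CT36) at night, against 7.69 (CT24), 7.85 and 8.08 (CT28) by day. Both C1qa and C1qc were -0.08 at night against day, with intervals from -0.21 to 0.05 and from -0.24 to 0.08. With array weights these differences were -0.03 for C1qa and 0.01 for C1qc.

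C1qb had a saw-tooth shape in each cycle, a repeat that did not pass its test after adjustment. It had 8.24 (CT12), 8.33 and 8.52 (CT20) at night, against 8.04 (CT24), 8.25 and 8.48 (CT28) by day, with a difference of 0.11 and an interval from -0.06 to 0.28. With array weights that difference was 0.24 (limma adjusted p = 0.133). At phase 20 h it was 8.49 in the second cycle and 8.52 in the first, the highest pool of each cycle. At phase 0 h, the next time sampled, it was 8.12 in the second cycle and 8.04 in the first, the lowest pool of each. At phase 4 h it stood at 8.40 in the second cycle and 8.48 in the first. Its 6 phase values in the second cycle correlated with those of the first at r = 0.92 (exact permutation p = 0.0139, adjusted over 10 markers 0.139). Spearman's rho was 0.83 (exact permutation p = 0.0583), and r without the 2 farthest phases was 0.64. The other 9 markers had cycle-to-cycle r between -0.41 (Csf1r) and 0.54 (Lyz2), the median of all genes was 0.33, and 1.28% of all genes had an r as high as that of C1qb. A 24 h cosine does not follow this shape, and its fitted amplitude was 0.03 ± 0.06 (SE). With phase as a factor of 6 levels in place of the cosine, C1qb had a limma p of 0.0075 (adjusted p = 0.209) and Lyz2 one of 0.0080 (adjusted p = 0.211). CT24 and CT48, the low pools of C1qb, also had the lowest 25th percentiles over all probes, 6.59 and 6.57. Over the 12 pools C1qb had r = 0.56 with that percentile (permutation p = 0.0546, adjusted over 10 markers 0.273). Spearman's rho was 0.65 (permutation p = 0.0255). The part of this dim end in the saw-tooth was not tested.

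**Figure D2:**
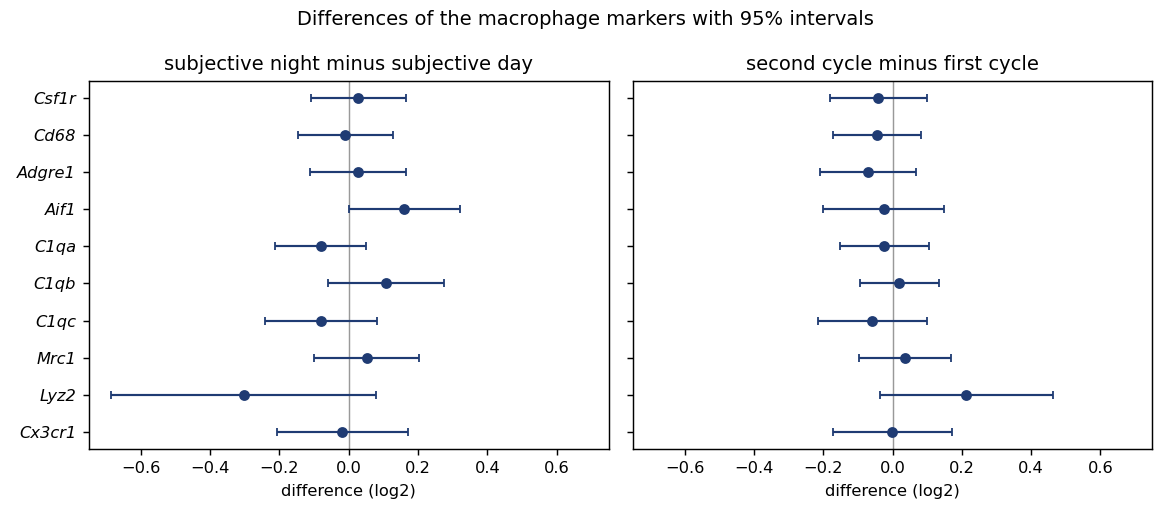
Differences of the 10 markers on the log2 scale with 95% intervals from limma, for subjective night minus subjective day (left, 6 pools each) and second minus first cycle (right, 6 pairs of pools of the same phase). All intervals include 0 except that of Aif1 on the left, whose lower end is 0.00.

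Lyz2, which encodes lysozyme M, the antibacterial enzyme of macrophages and neutrophils, was the exception in spread. Its SD over the 12 pools was 0.40, at the 99.1 percentile of all genes, while those of the other 9 markers lay between 0.10 and 0.16. In order from CT12 to CT56 its values were 8.73, 8.89, 9.57, 9.48, 9.80, 9.27, 9.07, 9.19, 10.02, 9.45, 9.37 and 9.91. In both cycles phases 12 and 16 h were its 2 lowest pools, and phase 20 h was above its mean. The fitted curve had an amplitude of 0.33 ± 0.12 (SE), a peak at CT1.2 and a ratio of peak to trough of 1.58, and it did not pass the test (limma adjusted p = 0.996). Without CT12 the amplitude was 0.26. At night Lyz2 had 8.73 (CT12), 9.13 and 10.02 (CT44) as lowest, median and highest, against 9.27 (CT32), 9.47 and 9.91 (CT56) by day. The night pools spanned the whole range of the day pools, and night minus day was -0.30, with an interval from -0.68 to 0.08 (limma adjusted p = 0.512). That difference was -0.20 without CT12 and -0.46 without CT44. Between cycles it was 0.21 higher in the second, with an interval from -0.04 to 0.46 (limma adjusted p = 0.441), and this value was 0.13 without the pair of CT32 and CT56 and 0.34 without that of CT28 and CT52.

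The gene beside Lyz2 on chromosome 10 is Lyz1, a near-identical copy expressed in Paneth cells of the gut and in some secretory cells, and the probes of such copies may share signal, so the identity of either is uncertain. Lyz1 had 8.25, 8.22, 8.35, 8.39, 8.66, 8.19, 8.58, 8.36, 8.37, 8.46, 8.37 and 8.54 from CT12 to CT56. Its peak at CT28 matched a high Lyz2 pool, but at CT44, where Lyz2 was highest, Lyz1 was near its mean. Night minus day was -0.08 for Lyz1 (limma adjusted p = 0.655).

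Over the 12 pools the genes most like Lyz2 among the other 19936 were Anxa2, which encodes the membrane-binding protein annexin A2 (r = 0.97), Aldh3a1, an aldehyde dehydrogenase abundant in corneal and other surface epithelia (0.94), and Adgre5, the leukocyte adhesion receptor CD97 (0.93). They were picked as the highest of all genes, so these r values are a description. Within the second cycle they were 0.98, 0.93 and 0.96, and within the first 0.98, 0.97 and 0.96, over 6 pools each. Aldh3a1 had 7.61 at CT12 and 8.29 at CT16, its 2 lowest pools, and 9.63 at CT44 and 9.74 at CT56, its 2 highest. Lyz2 shared those 4 extremes. None of the 3 is specific to macrophages.

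**Figure D3:**
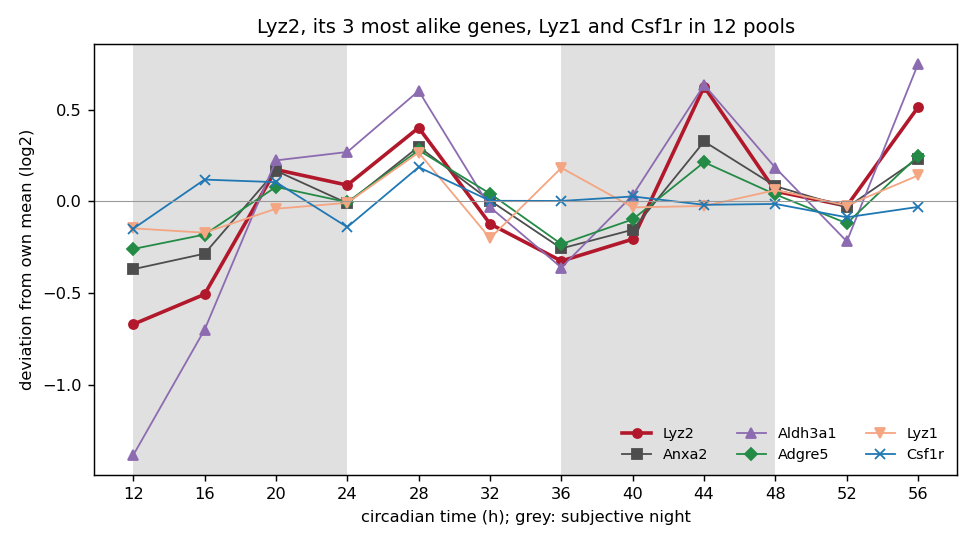
Deviation of Lyz2, Anxa2, Aldh3a1, Adgre5, Lyz1 and Csf1r from their own 12-pool means (log2, vertical axis) against circadian time (h), 1 point per pool. Lyz2, Anxa2, Aldh3a1 and Adgre5 are low at CT12 and CT16 and high at CT28, CT44 and CT56, while Csf1r stays within a range of 0.34.

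Lists of genes of other cell types and families were set beside Lyz2 as the mean deviation of each list in each pool. The deviations were not scaled, so genes that varied more weighed more in a list's mean. Of 24 lists, 3 correlated with Lyz2 past an adjusted p of 0.05 (permutation, Benjamini-Hochberg over the 24). Lyz2, the marker that varied most, was the only marker set beside the lists. The adjustment does not count that choice, so these p-values are a description. Fibroblast genes had r = 0.79 and rho = 0.78 (permutation p = 0.00082 and 0.00431, adjusted p for r = 0.00984). In that list Lum varied most, with an SD of 0.50, against 0.24 for Col1a1, 0.22 for Col1a2 and 0.14 for each of Dcn, Pdgfra and Col3a1. Of the 6 fibroblast genes, 1 was above its mean at CT12, 3 at CT16 and 6 at CT44. In the other pools with Lyz2 above its mean, the count was 2 at CT20, 1 at CT24, 4 at CT28, 1 at CT48 and 3 at CT56. Genes of mature olfactory sensory neurons had r = -0.77 and rho = -0.65 (permutation p = 0.00379 and 0.0256, adjusted 0.0303). The remaining list held only Adgre4 and Adgre5 and had r = 0.92, which largely repeats the likeness of Adgre5 given above. Without CT12 and CT44, the pools of the lowest and highest Lyz2, r was 0.68 for fibroblasts and -0.50 for neurons. All 8 mature neuron genes were above their own mean at CT12 and 0 of 8 at CT44. At CT24 and CT48, where Lyz2 was also above its mean, 7 of 8 and 6 of 8 were, and at CT56 1 of 8 was.

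Several myeloid lists also had positive correlations with Lyz2 that did not pass after adjustment. Monocyte genes had r = 0.61, MHC class II genes 0.60 and complement partners 0.60 (adjusted permutation p = 0.123 for each), pan-myeloid genes 0.53 (0.205) and neutrophil genes 0.49 (0.245). Without CT12 and CT44 these were 0.16, 0.68, 0.47, 0.50 and 0.04. Ltf and Lcn2 varied most in the neutrophil list, with SDs of 0.68 and 0.66, against 0.36 for Ngp, the next. They therefore weighed most in that list's mean, and which cells their transcripts came from was not tested. Tissue-resident macrophage genes had r = -0.13 and microglial genes -0.08. Among epithelial lists, sustentacular genes, of the supporting cells, had r = -0.61 (adjusted permutation p = 0.123). Lists added after their values had been seen are given as a description: r was 0.83 for the respiratory secretory lining, 0.68 for motile cilia, 0.64 for nasal gland secretory genes and 0.44 for horizontal basal cells. The part of tissue composition in the Lyz2 values was not tested.

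The markers tended to move together, but loosely. Of the 45 pairs, 39 had a positive correlation over the 12 pools, the median r was 0.36, and the range ran from -0.13 to 0.87. The median r of each marker with all other genes lay between -0.09 (Lyz2) and 0.13 (Cx3cr1). The share of all other genes with a positive r lay between 42.6% (Lyz2) and 63.1% (Adgre1). After adjustment over the 45 pairs 1 passed, C1qb with Mrc1, and 9 had an unadjusted permutation p under 0.05. C1qb and Mrc1 had r = 0.87 (permutation p = 0.00033, adjusted p = 0.0149) and rho = 0.85 (adjusted permutation p = 0.0459). Without CT20 and CT24, the pools farthest from the median of C1qb, r was 0.89, and it was 0.90 within the second cycle and 0.86 within the first (exact permutation p = 0.0347 in each, n = 6). The rank correlations within cycles were lower, with rho = 0.66 in the second (exact permutation p = 0.175) and 0.77 in the first (exact permutation p = 0.103). The pair was picked as the highest of the 45 over these same pools, so its values within cycles are a description. After quantile normalization r was 0.72 and the pair no longer passed (adjusted permutation p = 0.154). It also missed the threshold without CT28 (adjusted permutation p = 0.0531) or without CT44 (0.0639). Both genes were low at CT24 and CT48 and high at CT20, CT28 and CT44.

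Next came Cd68 with Cx3cr1 (r = 0.75, adjusted permutation p = 0.127), Adgre1 with C1qc (0.69) and Csf1r with C1qc (0.68). Csf1r also tracked Mrc1 (0.64) and Adgre1 (0.62) without passing the adjusted test. C1qa had r of at most 0.36 with any other marker over the 12 pools, and its highest rho was 0.55, with C1qc. Without CT44 and CT56, its r with C1qb, C1qc, Mrc1, Lyz2 and Cx3cr1 ran from 0.11 (Lyz2) to 0.65 (Cx3cr1). Aif1 had an r of at most 0.56, with C1qb, a pair whose rho was 0.76 (adjusted permutation p = 0.0959). Lyz2 had an r of 0.62 with Mrc1 and at most 0.45 with the rest.

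**Figure D4:**
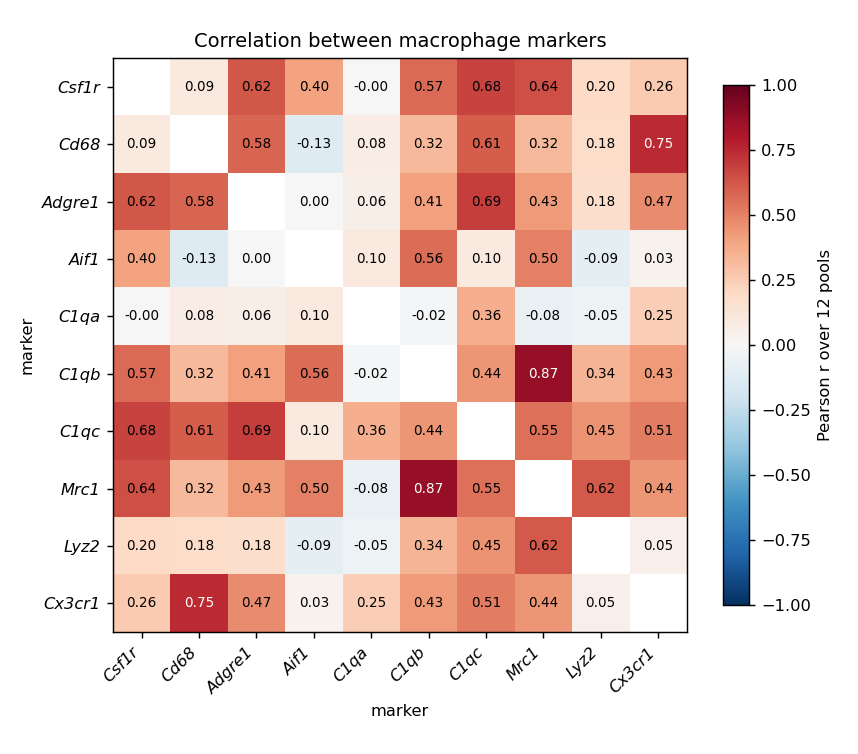
Pearson r over the 12 pools for each pair of the 10 markers (both axes), on a colour scale from -1 to 1. C1qb with Mrc1 is the highest at 0.87, and the row of C1qa has no value above 0.36.

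Ranked among all 19936 other genes, Mrc1 was 10th in likeness to C1qb and C1qb was 4th in likeness to Mrc1. These ranks too describe a pair picked for its r. The 3 genes with the highest r were Cd84, Dxo and Idi2 for Csf1r (highest 0.86), Lama5, Shisa4 and Plxnd1 for Cd68 (0.87), Rreb1, Sfi1 and Myh11 for Adgre1 (0.84), and Sprr1b, Slc17a3 and Cabp7 for Aif1 (0.95). They were Smim9, Csrnp1 and Pycrl for C1qa (0.92), Icosl, Tas2r104 and Rnf225 for C1qb (0.91), Kctd15, F630028O10Rik and Slc16a13 for C1qc (0.92), Olfr325, Il6ra and Tcirg1 for Mrc1 (0.90), and Serpinh1, Atp10a and Muc20 for Cx3cr1 (0.90). No macrophage marker was among the 3 most like genes of another.

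Pool by pool, the markers were most often raised at CT28 and CT36 and most often low at CT12, CT24 and CT48. At CT28, 9 of 10 were above their own mean (all but Aif1), against 58.4% of all genes, and Csf1r, C1qc and Mrc1 had their highest value there. The same pool had the highest MHC class II genes, which present antigen: all 6 were above their mean, by 0.45 on average, with H2-Aa at 10.13 and Cd74 at 9.85. All 15 pan-myeloid genes were also above their mean at CT28, by 0.17 on average. So were markers of other cells: 7 of 7 motile cilia genes (0.19 on average), 5 of 5 of horizontal basal cells (0.22), 9 of 10 of the respiratory secretory lining (0.17) and 9 of 10 of lymphocytes (0.07). At CT36, 9 of 10 markers were above their mean (all but Lyz2), against 49.4% of all genes. In that pool 10 of 10 lymphocyte genes were above their mean (by 0.20 on average) and 8 of 8 dendritic cell genes (0.26). At CT24 and at CT48, 1 of 10 was above its mean, Lyz2 in each, against 44.4% and 45.5% of all genes. Thus 9 of 10 were below their mean in both pools of phase 0 h, as were 43.1% of all genes. The pan-myeloid genes had 1 of 15 above their mean in each of these pools, and the tissue-resident macrophage genes 2 of 11 at CT24 and 1 of 11 at CT48. Other cells' markers were low there too, with lymphocyte genes at 2 of 10 at CT24 and 0 of 10 at CT48, dendritic cell genes at 1 of 8 and 0 of 8, and mast cell genes at 1 of 7 and 0 of 7. The part of these other cells in the marker counts was not tested. At CT12, 1 of 10 was above its mean, Cd68, against 47.5% of all genes, and 4 (Csf1r, C1qc, Mrc1 and Lyz2) had their lowest value. Above their mean in that pool were also only 1 of 13 neutrophil, 0 of 6 monocyte, 0 of 7 mast cell and 2 of 15 pan-myeloid genes. Mature neuron genes went the other way, with 8 of 8 above, and sustentacular genes with 5 of 6. The part of these other cells was not tested here either. These counts were read from the values and carry no test. Over all probes, CT36 had the highest 25th percentile of the pools (6.71), and CT24 and CT48 had the lowest (6.59 and 6.57). At CT12 and at CT28 it was 6.63. The part of this array level in the counts was not tested.

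**Figure D5:**
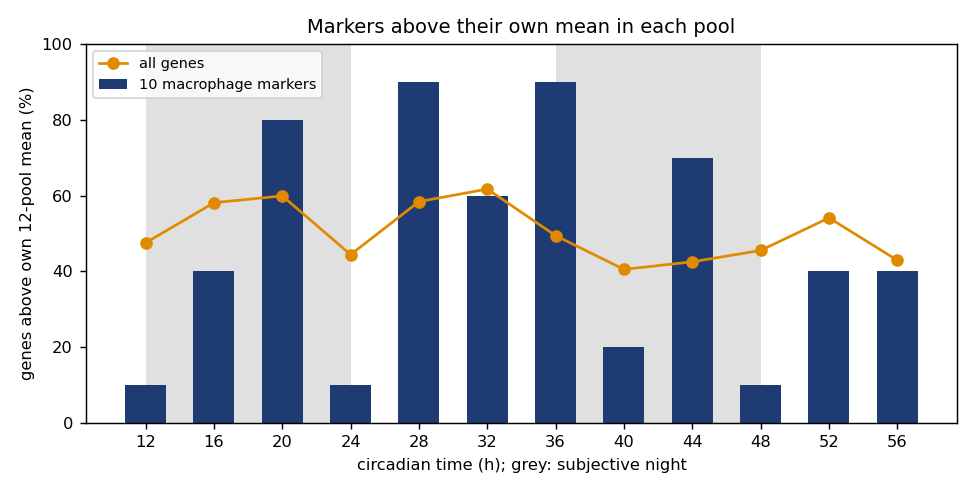
Share of the 10 markers above their own 12-pool mean (bars, %) and the same share of all 19937 genes (line, %) against circadian time (h), with grey for the subjective night. The bars reach 90% at CT28 and CT36 and 10% at CT12, CT24 and CT48, while the line stays between 40.5% and 61.7%.

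Between cycles none of the 10 passed, as above. Of the 10, 7 were lower in the second cycle, as were 61.7% of all genes, and the median difference was -0.02 for the markers and -0.03 for all genes. None of the 10 was lower in the second cycle with an unadjusted p under 0.05, against 8.94% of all genes. None was lower in all 6 pairs of pools, against 6.1%, and none was higher in all 6, against 1.58%. The lowest was Adgre1 at -0.07, with a mean of 6.90 ± 0.07 in the second cycle and 6.97 ± 0.12 in the first (SD, n = 6 each) and an interval from -0.21 to 0.07. Leaving Lyz2 aside, the 95% intervals of all markers lay within -0.21 and 0.17. Time in darkness and any processing order of the pools cannot be told apart in this comparison.

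The ligands of these receptors passed none of the tests either. Csf1, the main growth factor of macrophages, lay between 7.65 and 7.98 over the 12 pools, with night minus day of 0.09 and an interval from -0.04 to 0.22. Il34, the other ligand of Csf1r, lay between 7.51 and 7.88, with a difference of 0.09 and an interval from -0.05 to 0.23. Both had their lowest pool at CT48. Cx3cl1, the ligand of Cx3cr1, lay between 8.96 and 9.17, with a difference of -0.02 and an interval from -0.13 to 0.09. The transcription factor Spi1 differed by -0.02 between night and day (limma adjusted p = 0.865).

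Among the wider lists, 213 of 234 listed genes other than the markers were measured, and 0 passed any of the 3 limma fits after adjustment. Of them 5.63% had an unadjusted p under 0.05 for the rhythm, 6.57% for night against day and 9.86% between cycles, against 3.54%, 9.86% and 13.2% of all genes. Against 48.5% of all genes, 8 of 11 tissue-resident macrophage genes, 9 of 10 microglial genes and 10 of 10 lymphocyte genes were higher at night, counts that carry no test. So were 7 of 8 dendritic cell, 7 of 8 osteoclast and 10 of 13 neutrophil genes. Fewer were higher at night among MHC class II genes (2 of 6), the respiratory secretory lining (2 of 10) and motile cilia (0 of 7). Lymphocyte genes were 10 of 10 above their mean at CT16, CT36 and CT52, the pools with the highest 25th percentiles over all probes (6.66, 6.71 and 6.68). At CT48 and CT56, with 6.57 and 6.62, 0 of 10 were. That percentile had a median of 6.64 at night and 6.61 by day, and its part in these counts was not tested. F13a1, the coagulation factor XIII A chain, had the smallest p of the resident macrophage list, with night minus day of 0.19 (limma adjusted p = 0.497). Siglech, a sialic acid-binding lectin of microglia, was at 0.19 with the same adjusted p. Cd163, the haemoglobin scavenger receptor, was at 0.14 and Cd3e, a chain of the T cell receptor complex, at 0.19, each again with that adjusted p. Complement partners split evenly, with 6 higher and 6 lower at night, and C3ar1, the receptor of the C3a fragment, was at -0.20 (limma adjusted p = 0.497). The monocyte gene Chil3 had the smallest p of its list for a rhythm, with an amplitude of 0.19 ± 0.06 (SE, limma adjusted p = 0.996). Between cycles, S100a4, a calcium-binding protein of monocytes and fibroblasts, was 0.22 higher in the second (limma adjusted p = 0.304), Grn, the lysosomal protein progranulin, was -0.14 (limma adjusted p = 0.359), and Cd14, the co-receptor for bacterial lipopolysaccharide, was 0.25 (limma adjusted p = 0.329).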

How the data were processed

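The deposited log2 intensities, 1 value for each of 34760 probes and 12 pools, were used as they stand. Total RNA, per the labels' protocols, came from a Trizol extraction, and its random-primed whole-transcript product was labelled with biotin for Affymetrix arrays. The only tool in the submitters' processing notes is affy, without a version. How background was corrected and arrays normalized is not given in the sources used here, and the log base was read from the range of the values.

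The annotation gave 21640 probes 1 gene symbol and 1321 several, and 11799 are unnamed here. Of 954 genes with several probes the one with the highest mean was kept. Fits used limma 3.58.1 in R 4.3.3 over all 12 pools, without a filter: a 24 h cosine and sine (F test), subjective night against day, and second against first cycle with phase as a factor. Benjamini-Hochberg adjustment ran over 19937 genes, with a threshold of 0.05. Correlations used 100000 permutations, two-sided, or all orders where called exact (SciPy 1.17.1, numpy 2.4.6, pandas 2.3.3 and Python 3.11.15, with version 1.17.8 of the package data.table in R); figures used matplotlib 3.10.9. Promoters came from RefSeq (GRCm38.p6). The fits were tested on simulated data. Changes of 0.3 log2 units were found in 55.2% of cases for the rhythm (amplitude), 46.3% for night against day and 53.7% between cycles. For changes of 0.5 these shares were 95.5%, 88.1% and 88.1%. A change of 0.3 or less in a marker could thus be missed.

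Named were all markers, the 3 genes most like each by Pearson r, Csf1, Il34, Cx3cl1 and Lyz1, and, of each list, the gene with the smallest p of a fit, of which a selection is given. Spi1, H2-Aa, Cd74 and the tissue markers were named after their values were seen. The markers and 25 of the lists were chosen with earlier results of these data known, and 4 lists were added after seeing the values. Alternatives were other normalizations, filters and variance models, phase as a factor, a cycle block, a linear term of time and leaving out each pool, and, added after seeing the data, leaving out CT32 and CT56 together. The number of arrays limits the precision.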

Additional observations from a re-analysis of the deposited data

Results flagged for a closer look

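Cx3cr1 stood out at CT36, where its 8.82 was above the other 5 pools of the subjective night, of which the next was 8.51 at CT44. The gap was 0.627 of the group's whole range, just past Dixon's 95% critical value for 6 samples. In all 40 groups were screened (10 markers, each by night, day, second and first cycle), in which chance would give 2.0 such values, and 1 was found. CT28 and CT32, the day pools with 8.79 and 8.68, were about as high.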

How the results depend on the processing

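No marker passed the adjusted threshold in any alternative: the smallest adjusted limma p was 0.209 for the rhythm over 218 alternative values, 0.133 for night against day over 198 (C1qb, 0.24 with array weights) and 0.247 between cycles over 198. With cycle as a replicate block no adjusted call changed, and 0 markers in place of 1 had an unadjusted p under 0.05 for night against day. There, Lyz2 kept its amplitude of 0.33 (adjusted p = 0.984). Over all genes, 17 passed for the rhythm with phase as a factor. Between cycles, 1 gene passed without dim genes, 1 with a trended robust prior and 17 with array weights. Leaving out 1 pool at a time, which in the cycle fit removes its whole pair, gave 3 to 5 genes for the rhythm, 0 to 18 between cycles (18 without CT12 or without CT36) and 0 to 1 correlated pairs.

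Some signs turned, none of them of a value past the threshold. For night minus day these were Adgre1 (-0.020) and Cx3cr1 (0.0025) with quantile normalization, Cx3cr1 (0.022), Cd68 (0.0045) and C1qc (0.0085) with array weights, and Cd68 (0.019) without CT32 and CT56. Between cycles they were Cx3cr1 with quantile normalization (0.017) and without CT32 and CT56 (0.055), and C1qb with array weights (-0.0012). Leaving out 1 pool at a time, night minus day ran from -0.031 to 0.019 for Cd68, -0.0035 to 0.062 for Adgre1 and -0.079 to 0.031 for Cx3cr1. The second minus first cycle ran from -0.079 to 0.0057 for Csf1r, -0.083 to 0.035 for Aif1, -0.051 to 0.017 for C1qa, -0.00036 to 0.039 for C1qb, -0.113 to 0.0012 for C1qc, -0.0038 to 0.081 for Mrc1 and -0.069 to 0.055 for Cx3cr1. The correlation of C1qa with C1qb ran from -0.20 to 0.34. The causes were not tested.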
